A study of Mus musculus with 2 samples.

Results

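The genes described here are 10 genes of the Notch pathway, chosen by name: the receptors Notch1, Notch2, Notch3 and Notch4, the ligands Jag1, Jag2, Dll1 and Dll4, and the target genes Hes1 and Hey1. They were 10 of 21938 protein-coding genes in the GENCODE M21 annotation of the mouse genome (build mm10). Each gene was examined with 100 kb of sequence on either side, a stretch called its window. The 10 windows held 582 of 304233 peaks in replicate 1 and 418 of 217980 peaks in replicate 2. A promoter peak lay within 500 bp of the gene's own start site. A distal peak lay over 1 kb from every start site in the basic set of the annotation, and may lie nearer to starts that only the full annotation lists. The basic set of the annotation gives each of the 10 genes 1 start site.

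The measurements are DNase-seq, a map of open chromatin in which DNase I cuts exposed DNA and the cut ends are sequenced. The tissue was embryonic facial prominence, the swellings that build the face, from healthy B6NCrl mice at embryonic day 14.5, with both sexes pooled and no treatment listed. The study has 1 group with 2 biological replicates, taken from separate tissue samples that share a donor record. The design therefore holds no contrast between conditions, and no p-value can be given. What can be compared is how the Notch genes differ from each other, from the other genes and between the replicates.

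Notch receptors sit in the cell membrane and are activated by ligands on a neighbouring cell. Cleavage by an ADAM protease and then by gamma-secretase frees the intracellular part of the receptor, which enters the nucleus and joins the DNA-binding protein RBPJ and a Mastermind coactivator at target genes such as the Hes and Hey repressors. In the developing face, Jag2 is known for its role in palate and tongue epithelium, and Jag1 for its role in cranial neural crest.

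The sequences of open sites carry part of the results and are shown first, read 5′ to 3′ on the strand of the named gene from the GRCm38 genome, whose coordinates are those of mm10. Capitals mark every match on either strand of TGGGAA, the core of the RBPJ binding site, of the longer GTGGGAA, and of CACGNG, a string bound by Hes and Hey repressors. The first pair shows the promoter peaks of the receptor and of the ligand with the highest promoter ranks. The Notch2 stretch lies at chr3:98013396-98013526 on the plus strand and ends 1 base before the gene. The Jag1 stretch lies at chr2:137116736-137116885 on the minus strand, upstream of the gene.
Notch2 promoter peak: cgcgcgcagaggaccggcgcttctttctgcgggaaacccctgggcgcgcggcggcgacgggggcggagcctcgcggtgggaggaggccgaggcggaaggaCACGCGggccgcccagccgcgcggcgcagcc
Jag1 promoter peak: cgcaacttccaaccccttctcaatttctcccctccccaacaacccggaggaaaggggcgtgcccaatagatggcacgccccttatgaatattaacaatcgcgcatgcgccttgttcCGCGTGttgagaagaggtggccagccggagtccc
Neither stretch held TGGGAA, and each held 1 CACGNG match. GC content was 80.2% in the Notch2 stretch and 57.3% in the Jag1 stretch.

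The next set shows the distal site with the highest mean rank in each receptor or ligand window, as its central 150 bp. The sites of Notch4 and Dll1 lie in exons and are not printed. Those of Notch1 (chr2:26507586-26507735, minus strand), Notch2 (chr3:98063536-98063685, plus strand) and Jag1 (chr2:137114276-137114425, minus strand) lie inside the named gene, in introns. That of Notch3 (chr17:32025506-32025655, minus strand) lies in an intron of the neighbouring gene Hsf2bp. Those of Jag2 (chr12:112877706-112877855, minus strand) and Dll4 (chr2:119338006-119338155, plus strand) lie between genes.
Notch1 distal site: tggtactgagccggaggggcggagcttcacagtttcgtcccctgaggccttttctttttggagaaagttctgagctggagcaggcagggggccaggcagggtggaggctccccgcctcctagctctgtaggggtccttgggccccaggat
Notch2 distal site: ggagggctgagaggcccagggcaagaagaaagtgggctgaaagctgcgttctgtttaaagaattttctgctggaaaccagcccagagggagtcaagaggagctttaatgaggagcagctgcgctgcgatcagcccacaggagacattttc
Notch3 distal site: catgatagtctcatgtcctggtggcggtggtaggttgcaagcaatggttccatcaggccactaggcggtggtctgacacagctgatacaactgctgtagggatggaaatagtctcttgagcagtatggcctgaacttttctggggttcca
Jag1 distal site: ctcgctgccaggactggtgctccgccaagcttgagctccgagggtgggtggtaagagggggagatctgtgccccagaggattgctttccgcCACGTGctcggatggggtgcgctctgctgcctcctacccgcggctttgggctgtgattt
Jag2 distal site: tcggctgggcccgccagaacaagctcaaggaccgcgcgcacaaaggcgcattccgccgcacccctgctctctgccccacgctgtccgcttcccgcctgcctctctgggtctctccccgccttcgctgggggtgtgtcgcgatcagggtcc
Dll4 distal site: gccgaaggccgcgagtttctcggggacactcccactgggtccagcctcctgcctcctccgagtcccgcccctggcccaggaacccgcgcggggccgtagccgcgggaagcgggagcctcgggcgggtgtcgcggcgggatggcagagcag
None of these 6 sequences held TGGGAA, but they do not stand for all strongest sites: that of Dll1, not printed, held 1 match. The Jag1 site held CACGTG, a palindrome that matches CACGNG on both strands. GC content ran from 51.3% in the Notch3 site to 75.3% in the Dll4 site.

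Open chromatin at the promoter was found in both replicates for 9 of the 10 genes, where 67.5% of all protein-coding genes had such a shared promoter peak. Replicate 1 alone had a promoter peak at 10 of 10 genes, against 70.9% of all genes, and replicate 2 at 9 of 10, against 68.7%. The exception was Notch4. The height of a peak is given here as the authors' deposited score, a whole number between 1 and 150 in replicate 1 and between 1 and 146 in replicate 2. A rank is the percentile of a score within its own list.

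**Figure D1:**
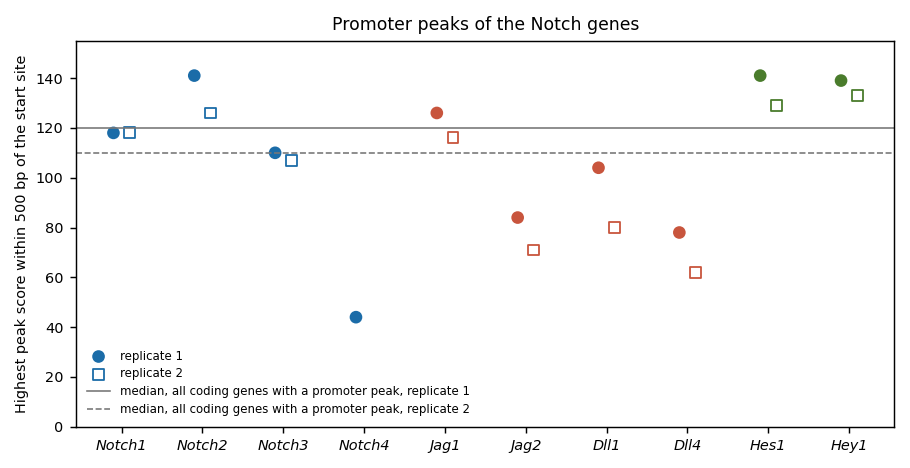
Highest score of a peak within 500 bp of the start site for each of the 10 Notch genes (blue receptors, red ligands, green targets), with filled circles for replicate 1 and open squares for replicate 2; grey lines are the medians over all protein-coding genes with a promoter peak, 120 in replicate 1 and 110 in replicate 2. Against the line of the same replicate, Notch2, Jag1, Hes1 and Hey1 lie above in both, Notch3, Jag2, Dll1 and Dll4 below in both, Notch1 below in replicate 1 and above in replicate 2, and Notch4 has no square.

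Among the receptors, Notch1, the most widely used receptor of the family, lies at chr2:26457903-26516663 on the minus strand. Its promoter peak scored 118 in replicate 1 and 118 in replicate 2. Notch2, a receptor known from kidney, bone and vessel development, lies at chr3:98013527-98150361 on the plus strand. Its promoter peak scored 141 and 126, the highest of the 4 receptors in both replicates. Notch3, the receptor of vascular smooth muscle and pericytes, lies at chr17:32120820-32166852 on the minus strand, and its promoter peak scored 110 and 107. Each of these 3 receptors has 1 best promoter score per replicate, and their order by that score was Notch2, Notch1, Notch3 in both replicates.

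Notch4, a receptor known mainly from endothelium, lies at chr17:34564268-34588503 on the plus strand. Its start site had a peak with a score of 44 in replicate 1, at the 38.5th percentile of that list, and no peak in replicate 2. The hotspot there, a broader region of enriched cleavage, had a deposited −log10 q-value of 4.04 in replicate 1, and replicate 2 had no hotspot at the start site. By comparison, the start sites of Notch1, Notch2, Notch3, Jag1, Jag2, Dll1, Hes1 and Hey1 lay in or beside hotspots at the ceiling of 100 in both replicates. A missing peak is not shown to be closed chromatin, since replicate 2 has the shorter list.

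Notch4 did have strong open chromatin elsewhere in the gene. A shared peak of score 133 in replicate 1 and 127 in replicate 2 lay 23.3 kb after the start site, at chr17:34587536-34587685, in a coding exon near the end of the gene. It had the highest rank of all 260 shared distal sites in the 10 windows. The peak lies 495 bp from the start of a processed transcript of Notch4 that only the full annotation lists, and 2195 bp from the nearest protein-coding start site in the basic set, that of Gpsm3. With all annotated transcripts, an alternative chosen after seeing the data, this peak counts as a promoter peak of Notch4 and the count of genes with a shared one becomes 10 of 10, against 69.3% of all genes. Of 12 endothelial marker genes, 12 had a promoter peak in replicate 1, against 70.9% of all genes, and 10 in replicate 2, against 68.7%. Pecam1 (score 47) and Sox17 (score 47), a junction protein and a transcription factor of endothelium, had theirs in replicate 1 only, as Notch4 did. This was not particular to endothelial markers: the skeletal muscle genes Acta1 (score 49) and Mymk (score 79) also had a promoter peak in replicate 1 only. The part of endothelial cells in the Notch4 values was not tested. In tissue of mixed cells, fewer open cells and less cleavage per cell cannot be told apart.

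Among the ligands, Jag1 had the highest promoter scores. Jag1 lies at chr2:137081456-137116644 on the minus strand and had 3 promoter peaks in each replicate, all shared. Their scores were 84, 126 and 106 in replicate 1 and 58, 116 and 85 in replicate 2, with the middle peak highest in both. Jag2 lies at chr12:112907819-112929776 on the minus strand and had 2 promoter peaks per replicate, with best scores of 84 and 71. The ligand Dll1, known from somite and neural progenitor boundaries, lies at chr17:15367354-15376872 on the minus strand. Its promoter peak scored 104 in replicate 1 and 80 in replicate 2. Dll4, the ligand of sprouting vessels, lies at chr2:119325784-119335962 on the plus strand. Its best promoter peak, at 78 and 62, was the lowest among the 9 genes with a shared promoter peak. Another shared promoter peak of Dll4 scored 54 and 34. The Dll4 hotspots at the start site also stayed below the ceiling, with −log10 q-values of 4.44 in replicate 1 and 4.10 and 1.77 in replicate 2. The order Jag1, Dll1, Jag2, Dll4 held in both replicates.

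The 2 target genes had promoter scores close to the top of the lists. Hes1, a repressor that keeps progenitors undifferentiated, lies at chr16:30064384-30067796 on the plus strand. Its best promoter peak scored 141 in replicate 1 and 129 in replicate 2, at the 99.4th and 98.9th percentiles. Hey1, a repressor known from heart and vessel development, lies at chr3:8663359-8667256 on the minus strand and scored 139 and 133, at the 99.1st and 99.4th percentiles. Hey1 also had a promoter peak of score 103 at -275 bp in replicate 1 that no peak of replicate 2 overlapped. Hes1 had one of score 63 at -469 bp, likewise without an overlapping peak in replicate 2. Each of these stretches lay inside a replicate 2 hotspot at the ceiling of 100, so enriched cleavage was called there in that replicate too. Notch2, Hes1 and Hey1 took the first 3 places in each replicate, but their order changed: Hes1 and Notch2 tied first in replicate 1, and Hey1 was first in replicate 2.

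As a group, the promoter peaks were of ordinary height. The median best promoter score was 114 over the 10 genes in replicate 1 and 120 over all genes with a promoter peak. In replicate 2 it was 116 over 9 Notch genes and 110 over all such genes. Of the Notch genes, 4 of 10 lay above the all-gene median in replicate 1 and 5 of 9 in replicate 2. Notch1 is the gene that changed side, since it scored 118 in both lists.

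Of the 10 genes, 8 were matched by symbol in RefSeq's table of promoter sequences for GRCm38, which spans 250 bp before to 50 bp after a start. Hes1 and Hey1 had no entry. CpG content, as the observed over the expected number of CpG dinucleotides, was lowest in the Notch4 promoter at 0.214, below the table's median of 0.384 over 32851 promoters. It was highest in Jag2 at 1.14 and Notch2 at 1.04, and all 7 matched genes other than Notch4 lay above the median. TGGGAA occurred in 0 of the 8 genes' promoters and in 25.6% of all promoters in the table. The looser string GTGNGAA occurred in the Notch4 promoter, and in 14.2% of all. GGGCGG, the string bound by Sp factors, occurred in the promoters of Notch1, Notch2, Notch3, Jag2 and Dll4, and in 35.7% of all. All strings were searched on both strands, and the absence of a string says only that these letters are not in this stretch.

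Away from promoters, the windows held 464 distal peaks in replicate 1 and 299 in replicate 2, which gave 260 shared distal sites. Windows differ in length, so the count was divided by the distal sequence in each window. The median over the 10 genes was 11.1 shared sites per 100 kb, against 6.90 over all protein-coding genes, whose quartiles were 3.65 and 10.1. Of the 10 genes, 9 lay above the all-gene median and 7 above the upper quartile. Some lists of cell-type marker genes, described below, had a similar median density. Within single replicates, 10 of 10 lay above the median of 11.97 distal peaks per 100 kb in replicate 1, and 8 of 10 above that of 8.46 in replicate 2. With replicate 2 left out the windows held 455 distal sites, and the median density was 17.9 per 100 kb.

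**Figure D2:**
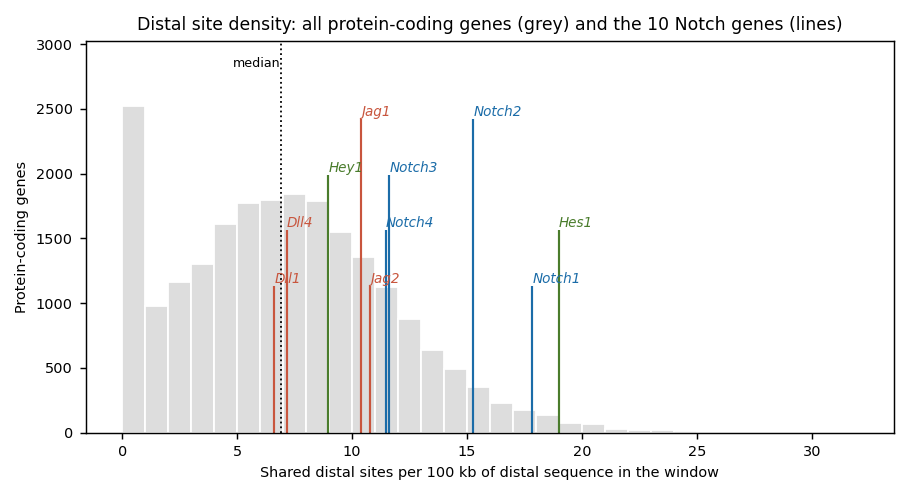
Number of protein-coding genes (vertical axis) by shared distal sites per 100 kb of distal sequence (horizontal axis, bins of 1), with a coloured line for each Notch gene (blue receptors, red ligands, green targets; line height has no meaning) and a dotted line at the all-gene median of 6.90. Hes1 at 19.01 and Notch1 at 17.8 lie in the upper tail, and Dll1 at 6.61 is the gene left of the dotted line.

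With the main settings, Hes1 had the densest window. Its 36 shared distal sites came to 19.01 per 100 kb, at the 98.9th percentile of all genes. Counted in single replicates, its window held 63 distal peaks in replicate 1 (99.7th percentile of all genes) and 44 in replicate 2 (98.7th). Notch1 followed with 40 shared sites at 17.8 per 100 kb (98.2nd percentile), from 68 and 41 distal peaks. Notch2 had the most sites, 49 at 15.3 per 100 kb (95.4th percentile), from 97 and 56 distal peaks. These 3 genes held the first 3 places in this order in each replicate, although Notch1 (30.3 distal peaks per 100 kb in replicate 1 and 18.3 in replicate 2) and Notch2 (30.2 and 17.5) were close.

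The middle of the order was less stable. Notch3 had 26 shared sites at 11.6 per 100 kb and Notch4 20 at 11.5. Jag2 had 21 at 10.8, Jag1 24 at 10.4 and Hey1 17 at 8.96. In single replicates, Notch3 had 14.3 distal peaks per 100 kb in replicate 1 and 15.6 in replicate 2, while Notch4 had 17.2 and 13.2. Jag2 had 16.4 and 12.3, and Jag1 had 20.8 and 11.2. Hey1 had 17.9 and 10.01. Most pairs of these 5 genes changed places between replicates: Notch3 with each of the other genes, Jag1 with Notch4 and Jag2, and Hey1 with Notch4 and Jag2. These 5 genes therefore cannot be ranked, although Notch4 stayed above Jag2, and Jag1 above Hey1, in both.

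With the main settings, the Delta ligands had the fewest shared sites per 100 kb. Dll4 had 14 shared sites at 7.16 per 100 kb (52.2nd percentile), from 25 and 15 distal peaks. Dll1 had 13 at 6.61 (47.8th percentile), from 35 distal peaks in replicate 1 and 16 in replicate 2. The all-gene median lies between them. Dll4 was last in both replicates, whereas Dll1 stood at the 80.4th percentile of all genes in replicate 1 and at the 47.7th in replicate 2. In replicate 1, Dll1 had 17.8 distal peaks per 100 kb, more than Notch4, Jag2 and Notch3. For sites nearest to the gene only, Notch4 was lowest (6.62 per 100 kb). Dll4 (13.9) then passed Jag1 (11.4), Hey1 (9.10) and Jag2 (8.20). With distal defined from the gene's own start site, Hey1 (8.92) and Jag1 (10.3) lay below Dll4 (10.6). By role, the median was 13.4 per 100 kb over the 4 receptors, 8.77 over the 4 ligands and 14.0 over the 2 targets.

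**Figure D3:**
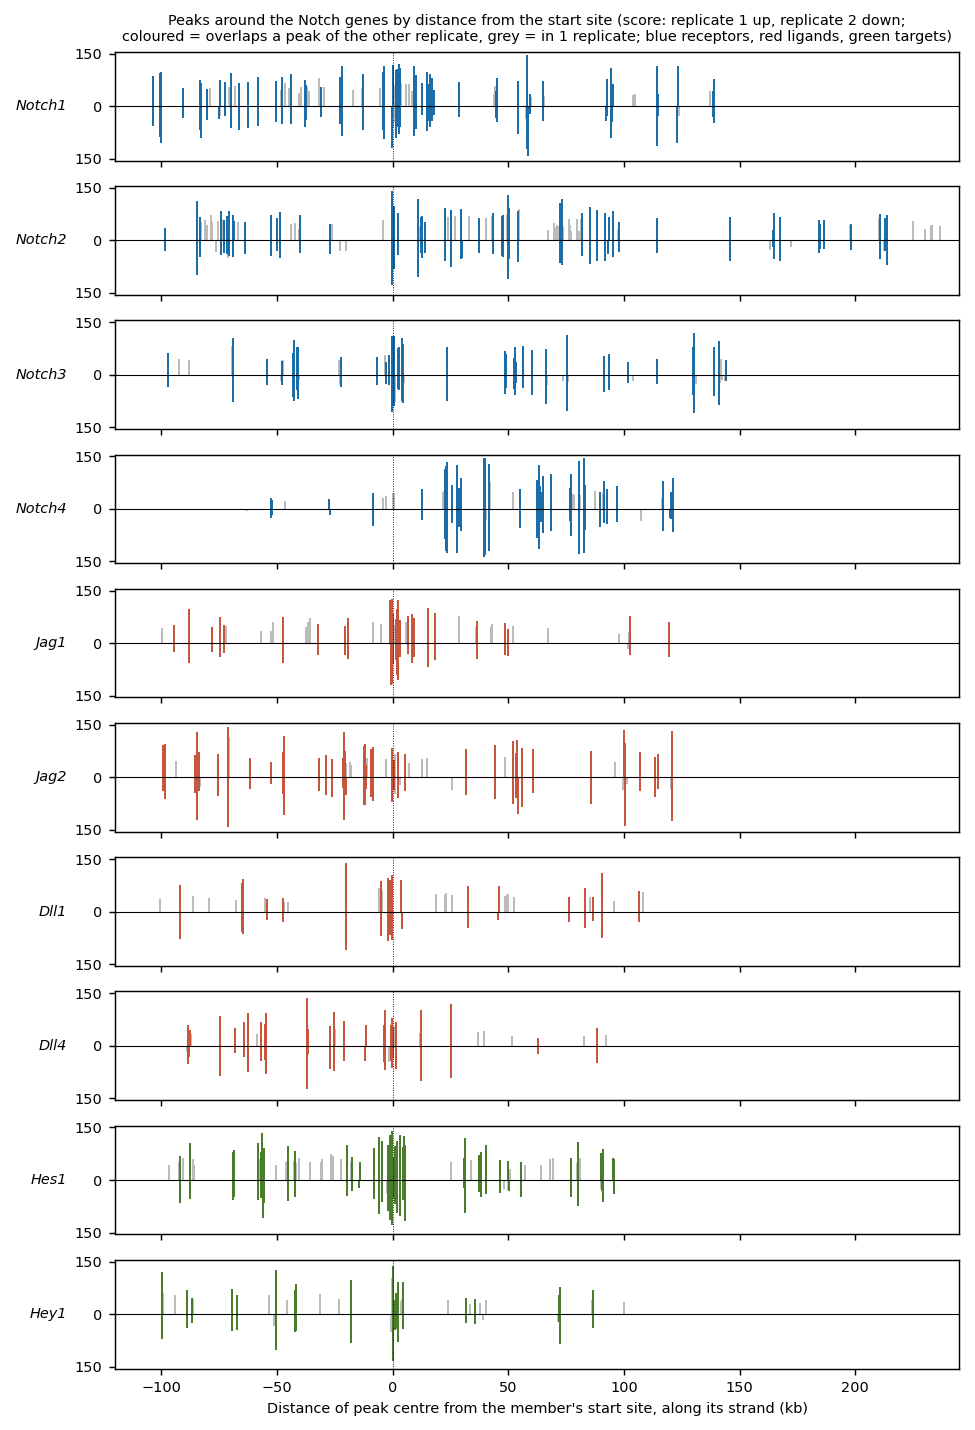
Peaks in the 10 windows by distance from the start site along the gene's strand (kb), with the authors' score upward for replicate 1 and downward for replicate 2; coloured peaks overlap a peak of the other replicate and grey ones do not. Peaks crowd around the start site in Hes1, Jag1, Notch1 and Notch3, and the strong peaks of the Notch4 window lie downstream of its start site; peaks near start sites of other genes are drawn too.

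The layout of the sites differed between genes. Over all 10 windows, 104 of the 260 sites lay upstream of the gene, 68 in the gene body and 88 downstream. By sequence, 123 lay in introns, 117 between genes, 12 in coding exons, 5 in exons of non-coding transcripts and 3 in untranslated exons. Of the 260 sites, 128 lay over 50 kb from the gene's start site. The distance of a site does not show which gene it acts on.

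Hes1 sites clustered at the gene, with 11 within 10 kb of the start site. The strongest lay at -1.10 kb with scores of 129 and 113. It lies 59 bp from the start of a processed transcript of Hes1 found only in the full annotation. Downstream of the gene, a site 5.16 kb after the start site scored 125 and 116 and one at 3.08 kb scored 129 and 102. The best peak at the Hes1 promoter, for comparison, scored 141 and 129. For 36 of 36 Hes1 sites the nearest protein-coding start site was that of Hes1, and its window holds no other protein-coding start. Hotspots covered 13.1% of the window in replicate 1 and 8.73% in replicate 2, against 3.18% and 2.19% of the main chromosomes. The chromosome values are not limited to windows around genes, and cover in the windows of all genes was not computed. Every Notch window exceeded them, the lowest being Dll4 at 4.72% in replicate 1 and Dll1 at 2.90% in replicate 2.

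Hey1 showed another layout, with 3 of its 17 sites within 10 kb of the start site. A site in its coding exon, 2.54 kb after the start site, scored 92 in replicate 1 and 80 in replicate 2. An upstream site at -99.5 kb scored 120 and 71. No other protein-coding gene starts in the Hey1 window, and Hey1 was the nearest for 15 of 17 sites.

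Jag1 and Notch1 each had their strongest site inside the gene. In the Jag1 first part, the intronic site at 2.29 kb scored 122 and 104 and its neighbour at 1.80 kb scored 98 and 92. Jag1 was the nearest protein-coding gene for 23 of its 24 sites. In Notch1, 18 of 40 sites lay in the annotated gene, with the strongest at -3.84 kb at 115 and 94. That site precedes the start site used here but lies in an intron, because longer Notch1 transcripts start further upstream. The next by rank was an intergenic site upstream of the gene at -22.0 kb (116 and 86), ahead of sites in the gene at 9.22 kb (116 and 85) and 2.86 kb (120 and 79). In the long Notch2 gene, 26 of 49 sites lay in the gene body and 1 within 10 kb of the start site. The strongest, at 50.1 kb, scored 131 and 111.

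Many windows are shared with neighbouring genes. Notch1 was the nearest protein-coding gene for 21 of its 40 sites, with 9 other genes in its window, Notch2 for 23 of 49, with 2, and Notch3 for 12 of 26, with 3. The Notch4 window holds 13 other protein-coding genes, and Notch4 was the nearest for 2 of 20 sites. Jag2 was the nearest for 3 of 21 sites, with 7 other genes in its window, and Dll4 for 4 of 14, with 5. The strongest Jag2 site, 52.0 kb after the start site with scores of 103 and 75, has Gpr132 as its nearest protein-coding gene. The strongest Dll4 site, 12.3 kb after the start site with scores of 103 and 100, has Dll4 as nearest. The strongest Notch3 site, 141 kb after the start site with 97 and 87, lies in Hsf2bp. Dll1 was the nearest for 9 of 13 sites, and its strongest, at -2.16 kb with 96 and 83, lies in an exon of the non-coding RNA A930024N18Rik, which starts 976 bp from Dll1 on the other strand. A non-coding transcript, Gm14207, likewise starts 410 bp from Dll4 on the other strand, so promoter peaks there cannot be assigned to 1 gene of the pair.

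The RBPJ core string was searched in the central 150 bp of each distal site. TGGGAA occurred in 73 of the 260 sites, which is 28.1% (exact 95% interval 22.7 to 34.0, counting error only), against 17.2% of 140270 shared distal sites of the genome. Sites of 1 window share a locus and are not independent replicates. The longer GTGGGAA occurred in 10% of the Notch gene sites and in 3.94% of all, and the looser GTGNGAA in 15.4% against 8.85%. CACGNG occurred in 19.2% against 10.01%, and GGGCGG in 11.9% against 6.12%. The Hes string CACNAG occurred in 36.2% against 30.9%, and the general E-box CANNTG in 69.2% against 66.7%. The AP-1 string TGANTCA occurred in 3.85% against 6.58%, the TEAD string GGAATG in 10.8% against 12.6%, and the homeodomain string TAATTA in 3.08% against 4.18%. GTGGGAA is contained in TGGGAA counts, and CACGNG and CANNTG share matches.

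Base composition moved with these shares. The mean GC content was 53.8% in the Notch gene sites and 49.1% in all shared distal sites. In an alternative chosen after seeing the data, sites with a GC content between 48% and 58.8% were compared. TGGGAA then occurred in 35 of 134 Notch gene sites, 26.1% (18.9 to 34.4), and in 18.2% of 69066 sites of the genome. The same letters in reversed order, AAGGGT, occurred in 5% of the Notch gene sites and 5.83% of all.

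**Figure D4:**
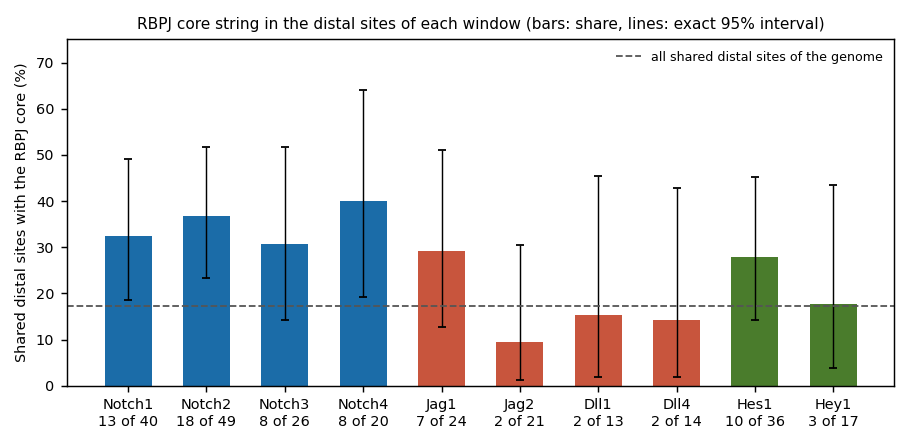
Percent of shared distal sites with TGGGAA in their central 150 bp (bars start at 0) for each gene's window, with exact 95% intervals for counting error; the dashed line is the share of all shared distal sites, 17.2%. The intervals of Notch1, Notch2 and Notch4 lie above the dashed line and those of the other 7 genes include it.

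The share was above the genome-wide 17.2% at all 4 receptors, and also at Jag1 (29.2%), Hes1 (27.8%) and, by little, Hey1 (17.6%). By gene, the share was 8 of 20 sites at Notch4, 18 of 49 at Notch2, 13 of 40 at Notch1 and 8 of 26 at Notch3. At the targets it was 10 of 36 for Hes1 and 3 of 17 for Hey1. Among the ligands Jag1 had 7 of 24, while Jag2 had 2 of 21, Dll1 2 of 13 and Dll4 2 of 14. Of these 10 intervals, those of Notch1 (18.6% to 49.1%), Notch2 (23.4% to 51.7%) and Notch4 (19.1% to 63.9%) did not include the genome-wide share, and differences between genes were not tested. Of all 260 sites, 10 held 2 or more matches. The site with most, 3, lay 56.8 kb upstream of Dll4 with scores of 67 and 43, and its nearest protein-coding gene is Rhov.

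The share of peaks found in both replicates was close to that of the whole lists, which lay inside the intervals for the Notch windows. Of the 418 replicate 2 peaks in the windows, 86.4% (82.7 to 89.5) overlapped a replicate 1 peak by 1 bp or more, against 83.6% of the whole list. Of the 582 replicate 1 peaks, 62.4% (58.3 to 66.3) overlapped a replicate 2 peak, against 59.2%. Over the 260 distal sites, scores ranged from 21 to 133 (median 74) in replicate 1 and from 17 to 127 (median 46.5) in replicate 2. Their rank correlation between replicates was 0.81 (Spearman's rho over 260 sites, as a description of sites that share libraries).

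Replicate 1 had 1.39 times as many peaks as replicate 2 in the Notch windows and 1.40 times in the whole lists. The ratio differed by gene, from 2.05 at Dll1 (39 and 19 peaks) to 0.849 at Notch3 (45 and 53 peaks). Notch3 is the gene with more peaks in replicate 2, and 14 of those overlapped no peak of replicate 1. The highest of the 14 scored 79 and lay 0.941 kb after the Notch3 start site. It lay inside a replicate 1 hotspot at the ceiling of 100, so enriched cleavage was called there in replicate 1 too. Peaks of replicate 1 without a partner reached 114 at -70.7 kb from Jag2 and 107 at -99.7 kb from Hey1. The Jag2 one lay near a start site of a neighbouring gene, beside a shared peak at -71.1 kb (145 and 143). The Hey1 one lay beside the shared site at -99.5 kb (120 and 71). Instrument models are listed for replicate 1 only, so a sequencing batch and a replicate cannot be told apart, and the read depth behind the scores is unknown.

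Other genes of the pathway were mostly open as well. Of 44 further pathway genes, 42 had a promoter peak shared by the replicates, where 67.5% of all protein-coding genes had one. They included 3 of 3 other ligands, 9 of 9 receptor proteases and their subunits, 5 of 5 genes for receptor glycosylation and 13 of 13 for trafficking and turnover. Rbpj, the gene of the DNA-binding partner of the receptors, had a best promoter score of 141 in replicate 1 and 133 in replicate 2, with 43 shared distal sites in its window. Of the 6 genes of the nuclear complex, Maml2, a Mastermind coactivator, was the 1 without a shared promoter peak: its best peaks scored 93 and 75 but did not overlap. Of 8 other targets, Hes3 was the 1 without, and it had no promoter peak in either replicate. The related Hey2 scored 139 and 131, similar to Hey1, but had 7 shared distal sites where Hey1 had 17.

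Distal density was also high around many of these genes. The median over the 44 was 10.4 shared sites per 100 kb, and 34 of 44 lay above the all-gene median. The 5 densest were Hes7, a clock gene of somite formation, at 19.9, Lfng, which adds sugars to Notch receptors, at 17.4, the atypical ligand Dlk1 at 15.4, Spen, a corepressor partner of RBPJ, at 15.2, and Neurl1a, a ubiquitin ligase that acts on ligands, at 15.2. Hes7 exceeded Hes1 in density, but its promoter scores of 53 and 49 were lower than those of Hes1.

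Markers of cell types the tissue can hold were checked in the same way, again beside 67.5% of all protein-coding genes. A shared promoter peak was present at 14 of 14 genes of facial mesenchyme, 12 of 12 of epithelium, 11 of 11 of neurons, 10 of 12 of endothelium, 9 of 10 of pericytes and smooth muscle, and 7 of 9 of skeletal muscle. Of 8 hepatocyte genes, which this tissue should lack, 0 had one. Promoters of genes from several cell types were thus open together, and the cell type in which a Notch gene is open cannot be read from these lists. High distal density was not particular to Notch pathway genes. The median was 11.8 shared sites per 100 kb over epithelial genes, 10.8 over facial mesenchyme, 7.06 over neuronal and 6.09 over hepatocyte genes. Above the all-gene median lay 12 of 14 genes of facial mesenchyme, 10 of 12 of epithelium and 8 of 9 of skeletal muscle. So did 8 of 12 endothelial, 7 of 10 pericyte and smooth muscle, 6 of 11 neuronal and 3 of 8 hepatocyte genes.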

How the data were processed

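The samples were 2 replicates of DNase-seq, for each of which the authors deposited peaks and hotspots in mm10 coordinates, called on that replicate alone and not pooled, per the labels and the descriptions deposited with the lists. The aligner, the caller and its thresholds, and how deeply each library was sequenced, were not given in the sources used here. The deposited peak score has no stated normalization and was used to describe and rank peaks within a list. The deposited hotspot value is a −log10 of a q-value, from 1.30 to a ceiling of 100. More reads give more called regions, so the longer list can hold weaker ones.

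Regions off the main chromosomes and repeated coordinates were left out, leaving 304233 peaks and 277933 hotspots in replicate 1, and 217980 peaks and 198482 hotspots in replicate 2. Peaks were shared if they overlapped by 1 bp or more, and shared peaks that touched each other formed 1 site. Start sites came from the basic GENCODE M21 set. Coordinates are 1-based. Exact (Clopper-Pearson) 95% intervals cover counting error only. Python 3.11.15 was used with numpy 2.4.6, pandas 2.3.3, scipy 1.17.1 and matplotlib 3.10.9, and the counting was tested on simulated data.

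The genes and lists were chosen with earlier results of these data known. By the rule for naming, all 10 Notch genes are described, with every best promoter peak and the strongest shared distal site of each except Hey1, meaning the highest mean percentile, and among other pathway genes those without a shared promoter peak and the 5 densest. Other named peaks and genes, such as Rbpj, Hey2, Pecam1, Sox17, Acta1 and Mymk, were chosen after their values were seen. Promoter peak sequences of Hes1 and Hey1, which the rule also lists, are not given. The strongest distal site of Hey1 is not reported here, and the Hey1 sites described were chosen after their values were seen.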

Additional observations from a re-analysis of the deposited data

How the results depend on the processing

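Of 55 alternatives to the reported values, 33 stayed within the spread or within 1.5 times of a count, 22 moved and 0 reversed. These values are counts, densities, shares and percentiles, which have no sign, so none of them could reverse. For counts of sites at single genes, 84 of 110 stayed within 1.5 times. The number of genes with a shared promoter peak was 9 or 10 under every alternative run. The 260 shared distal sites became 169 with 50 kb on each side and 148 when limited to sites nearest to the Notch gene, and were 291 without replicate 1 and 455 without replicate 2. The median density of 11.1 per 100 kb became 7.02 with peaks at or above the median score (all genes 3.23) and 15.0 with distal defined from the gene's own start site, and was 12.5 without replicate 1 and 17.9 without replicate 2. Under the alternatives for which all genes were recomputed, 8 to 10 of the 10 genes lay above the all-gene median. The share of replicate 2 peaks that overlapped replicate 1 became 93.95% with peaks at or above the median score, 80.6% with 75 bp of overlap, 90.5% with hotspots and 82.1% with lists of equal length. The TGGGAA share became 28.6% with the higher-scoring peaks, 23.7% with hotspots (all sites 16.9%), 28.9% with lists of equal length, 39.6% with 300 bp of sequence (all sites 30.3%), 27.2% with 50 kb on each side, 29.7% with all annotated transcripts, 26.1% in the GC range given above, and 10% for GTGGGAA, and ranged from 24.4% to 25.1% with 1 replicate left out. The median promoter percentile was 96.1 against 96.3 over all genes, and its side changed with the setting. It lay above all genes without replicate 1 (97.0 against 96.1), with the higher-scoring peaks (96.8 against 96.7) and with all annotated transcripts (97.0 against 96.3). Below them it lay, for example, without replicate 2 (95.7 against 96.7). With hotspots it became 84.9, where all genes also stood at 84.9. The value of 84.9 is the rank of hotspots tied at the ceiling of 100, averaged over the replicates. Its equality with all genes follows from that ceiling and compares no heights. The all-transcript and GC settings were chosen after seeing the data. No paired analysis was possible because the study has 1 group of 2 replicates. Depth is unknown, so a peak missing from replicate 2 was not called in that list and is not shown to be absent.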
